A study of Mus musculus with 23 samples.

Results

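Cytochrome P450 genes were followed in mouse lung epithelial cells that were sequenced on isolation and again in culture with or without a bacterial stimulus. The members were the genes whose symbol starts with Cyp and a digit, without Cyp2f2, Cyp51 and names ending in -ps. That gave 101 of the 41073 genes in the count tables, of which 79 had a count in at least 1 library and 22 had none. Cyp4x1os, an antisense RNA, and Cyp4b1-ps2, a pseudogene, met the rule as written and were kept, with 2 and 27 counts summed over the fresh libraries. The 23 bulk RNA libraries came from 3 experiments (A, B and C), and every one was made from cells of C57BL/6 wild type mice selected for the surface protein EpCAM. The groups were day 4 cultures treated with NTHi (7 libraries), untreated cultures on the same day (7), untreated cultures on the day of airlift, when the cell layer is first opened to air from above (6), and freshly isolated cells (3, 1 per experiment). NTHi is the usual short name of nontypeable Haemophilus influenzae, a bacterium of the airways; the sources used here give neither its dose and form nor the age and sex of the mice. Nothing in the labels says whether replicates came from separate mice or cultures, so each p-value is set against the spread of these libraries only, part of which may be technical.

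P450 enzymes are haem proteins that insert an oxygen atom into their substrate with electrons passed on by a reductase, Por, in the endoplasmic reticulum or by ferredoxin in mitochondria. Members of the CYP1, CYP2 and CYP3 families oxidise drugs, smoke components and other foreign compounds, while most other families act on the body's own fatty acids, retinoids, vitamin D, sterols and steroids. In the lung, club cells of the bronchioles are known for their high content of P450 enzymes. Several P450 genes are targets of receptors that bind their substrates: the aryl hydrocarbon receptor acts on Cyp1a1 and Cyp1b1, and retinoic acid receptors act on Cyp26a1.

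Cyp1b1, Cyp26a1 and Cyp26b1 were among the members with the largest rises at airlift, and Cyp1a1 is the usual marker of the receptor that also acts on Cyp1b1. The promoter stretches of these 4 genes are shown for that reason, each from 250 bases before to 50 bases after the annotated start, read 5′ to 3′ along the gene. They are credited to RefSeq (GRCm38.p6), which held a promoter for 58 of the 79 members with a count; the counts themselves were made on build GRCm39, and no coordinate was carried between the builds. In the first pair, capitals mark the core motif GCGTG that the aryl hydrocarbon receptor is known to bind, on either strand.
Cyp1a1, chr9:57697363-57697662, plus strand: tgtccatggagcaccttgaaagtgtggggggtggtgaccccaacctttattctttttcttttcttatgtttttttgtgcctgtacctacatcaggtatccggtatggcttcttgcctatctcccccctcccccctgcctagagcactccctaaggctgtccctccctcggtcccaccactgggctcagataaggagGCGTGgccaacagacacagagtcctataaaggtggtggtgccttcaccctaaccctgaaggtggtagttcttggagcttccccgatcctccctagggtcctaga
Cyp1b1, chr17:79715012-79715311, minus strand: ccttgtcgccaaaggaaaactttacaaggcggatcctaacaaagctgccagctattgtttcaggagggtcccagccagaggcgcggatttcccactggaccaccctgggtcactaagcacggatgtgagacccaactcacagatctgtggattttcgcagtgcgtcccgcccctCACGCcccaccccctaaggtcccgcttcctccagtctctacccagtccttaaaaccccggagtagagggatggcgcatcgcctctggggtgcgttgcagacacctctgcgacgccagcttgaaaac
The match lay 54 bases before the start of Cyp1a1 on the printed strand and 76 bases before the start of Cyp1b1 on the other strand. Of 32851 RefSeq promoters of this length, 32.4% held GCGTG on at least 1 strand. In the second pair, capitals mark AGTTCA, a form of the half-site of retinoic acid receptors, searched together with AGGTCA on both strands.
Cyp26a1, chr19:37697558-37697857, plus strand: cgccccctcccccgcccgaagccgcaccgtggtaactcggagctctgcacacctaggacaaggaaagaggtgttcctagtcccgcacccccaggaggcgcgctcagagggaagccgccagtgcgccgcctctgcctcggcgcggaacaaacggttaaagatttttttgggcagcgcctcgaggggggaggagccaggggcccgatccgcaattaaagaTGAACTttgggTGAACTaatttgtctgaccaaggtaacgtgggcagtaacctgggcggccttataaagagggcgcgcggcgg
Cyp26b1, chr6:84593761-84594060, minus strand: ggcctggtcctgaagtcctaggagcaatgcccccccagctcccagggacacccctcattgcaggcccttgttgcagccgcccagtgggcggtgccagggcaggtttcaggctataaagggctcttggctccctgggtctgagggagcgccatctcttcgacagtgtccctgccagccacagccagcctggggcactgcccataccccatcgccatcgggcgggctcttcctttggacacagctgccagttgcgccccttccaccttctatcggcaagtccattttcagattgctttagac
Cyp26a1 held 2 copies of AGTTCA on the other strand, 32 and 21 bases before the start and spaced by 5 bases. Promoters with AGTTCA made up 14% of the 32851 and those with AGGTCA 16.3%. A pair of AGTTCA in the same direction with this spacing was in 8 of them (0.0244%), and Cyp26a1 was the only member with it. The search was set to the motif and spacing present in Cyp26a1, so this share does not single the gene out. Pairs with AGGTCA or with other spacings were not searched. Neither motif was found in the window of Cyp26b1, and a match or its absence describes these letters only.

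The summed level of the family was highest in fresh cells after scaling. Its summed level, in CPM (counts scaled to a common library total, here adjusted by the TMM method), was 1173 to 1637 (median 1346) at isolation, 644 to 858 (median 690.4) at airlift, and at day 4 432 to 483 (median 452) with NTHi and 627 to 750.4 (median 687) without. The 3 fresh libraries lay above all others, and the 7 NTHi libraries lay below all others. As a share of all counts, with no scaling, the family made up 0.0869% to 0.126% at isolation, 0.0706% to 0.0909% at airlift, 0.0442% to 0.0484% with NTHi and 0.0684% to 0.0782% in day 4 control, so that on this scale the lowest fresh library fell within the range of airlift. Few genes carried the sum: the 4 highest members of each library held 73.1% to 77.6% of it at isolation and 50% to 53.9% with NTHi. The leading member by CPM was Cyp4b1 in the 3 fresh libraries, Cyp2s1 in the 6 airlift libraries and Cyp2b10 in the 7 day 4 control libraries. With NTHi it was Cyp4v3 in every library except C_3, where it was Cyp1b1.

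**Figure D1:**
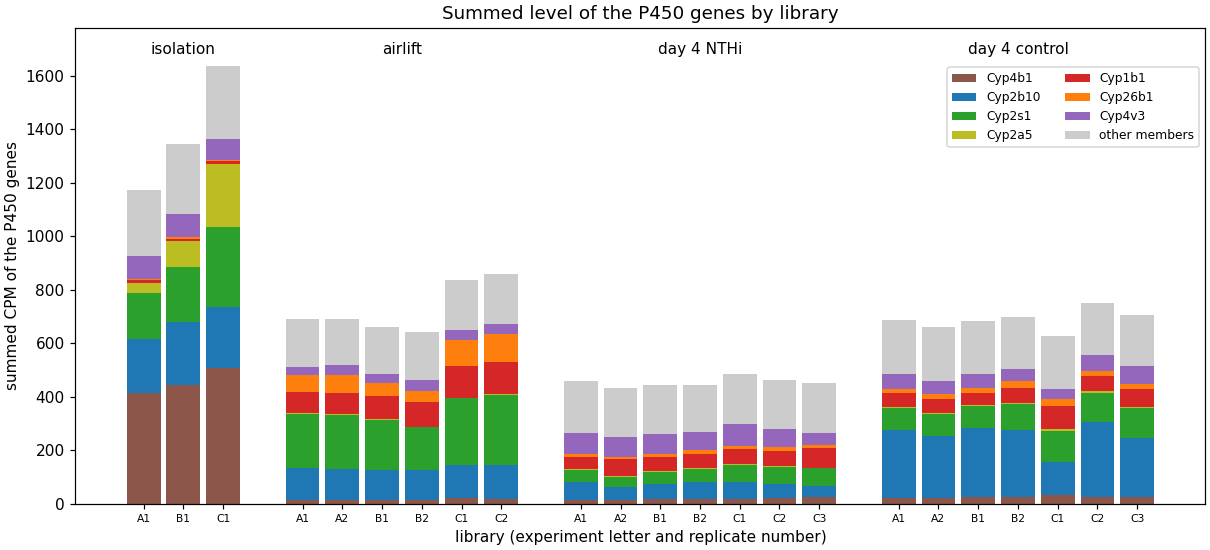
Summed CPM of the P450 genes in each of the 23 libraries, stacked by member, with libraries in groups along the horizontal axis. The fresh libraries reach 1173 to 1637, and the segment of Cyp4b1 that leads them is thin in the other groups.

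Of the 79 members, 23 reached a group mean of at least 5 CPM, 6 had their highest group mean between 1 and 5 CPM and 50 stayed under 1 CPM. The highest group mean was at isolation for 52 members, at airlift for 9, with NTHi for 10 and in day 4 control for 8. The share of all genes highest at isolation was not computed, so this count describes the members only. Some of these placings rest on few counts, isolation had the fewest libraries, and its TMM factors of 0.741 to 0.77 raised its CPM. Between genes, levels can be compared only per length of transcript. Divided by exon length (GENCODE M21), Cyp4b1 stood first at isolation with 202 ± 20.7 CPM per kilobase (SD, n = 3), followed by Cyp2b10 with 105 ± 8.34. Cyp2b10 stood first in the other 3 groups, with 56.1 ± 2.95 at airlift (SD, n = 6), 26.4 ± 4.58 with NTHi and 109 ± 24.6 in day 4 control (SD, n = 7 each). Cyp2s1 came second per kilobase at airlift, with 42.7 ± 7.78, and Cyp4v3 came second with NTHi, with 18.2 ± 3.05, beside 10.7 ± 2.33 for Cyp2s1.

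NTHi lowered more P450 genes than it raised. Among 29 members with enough counts to test, 3 were higher and 12 were lower with NTHi at an adjusted p under 0.05 (edgeR quasi-likelihood test, Benjamini-Hochberg adjustment over 16337 genes), and 14 did not pass. Of all genes tested, 20.1% were higher, 20.4% were lower and 40.5% were called in either direction. The members' median log2 fold change was -0.20, beside 0.00 over all genes. The 15 called members had the same sign in each of the 3 experiments, but the calls came from these same libraries, so this is no separate check.

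From fresh cells to airlift, more of the tested members were called lower than higher. Of 35 members tested, 7 rose and 21 fell, beside 37.9% of all 18302 genes that were higher, 36.7% that were lower and 74.6% called in either direction. The median was -0.89 for the members and 0.00 for all genes. Scaling by library totals alone, without TMM, moved the median of all genes to 0.49 and that of the members to -0.41. On that scale 12 members were higher and 17 lower, beside 10131 and 4223 of all genes. From airlift to day 4 in control cultures, 15 members rose and 10 fell, beside 26.9% higher, 27.7% lower and 54.5% called among all genes, with medians of 0.26 for the members and -0.02 for all genes. Day 4 control still differed from fresh cells in 29 of 35 members, 10 higher and 19 lower, beside 38.8% higher, 37.7% lower and 76.6% called among all genes. The medians were -0.95 and 0.02 there. By library totals the median of all genes was 0.49 and that of the members -0.48. On that scale 14 members were higher and 17 lower, beside 10149 and 4497 of all genes. These 3 comparisons share their groups, so their counts are not independent of each other. The filter also let a gene in on its level in a single group. Cyp8b1, Cyp2c23, Cyp3a57, Cyp4a12b and Cyp4a32, with few or no counts in untreated culture, entered on their fresh level. Against isolation they could only be called lower, so the counts of falls are in part set by the filter. The same filter held for all genes.

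**Figure D2:**
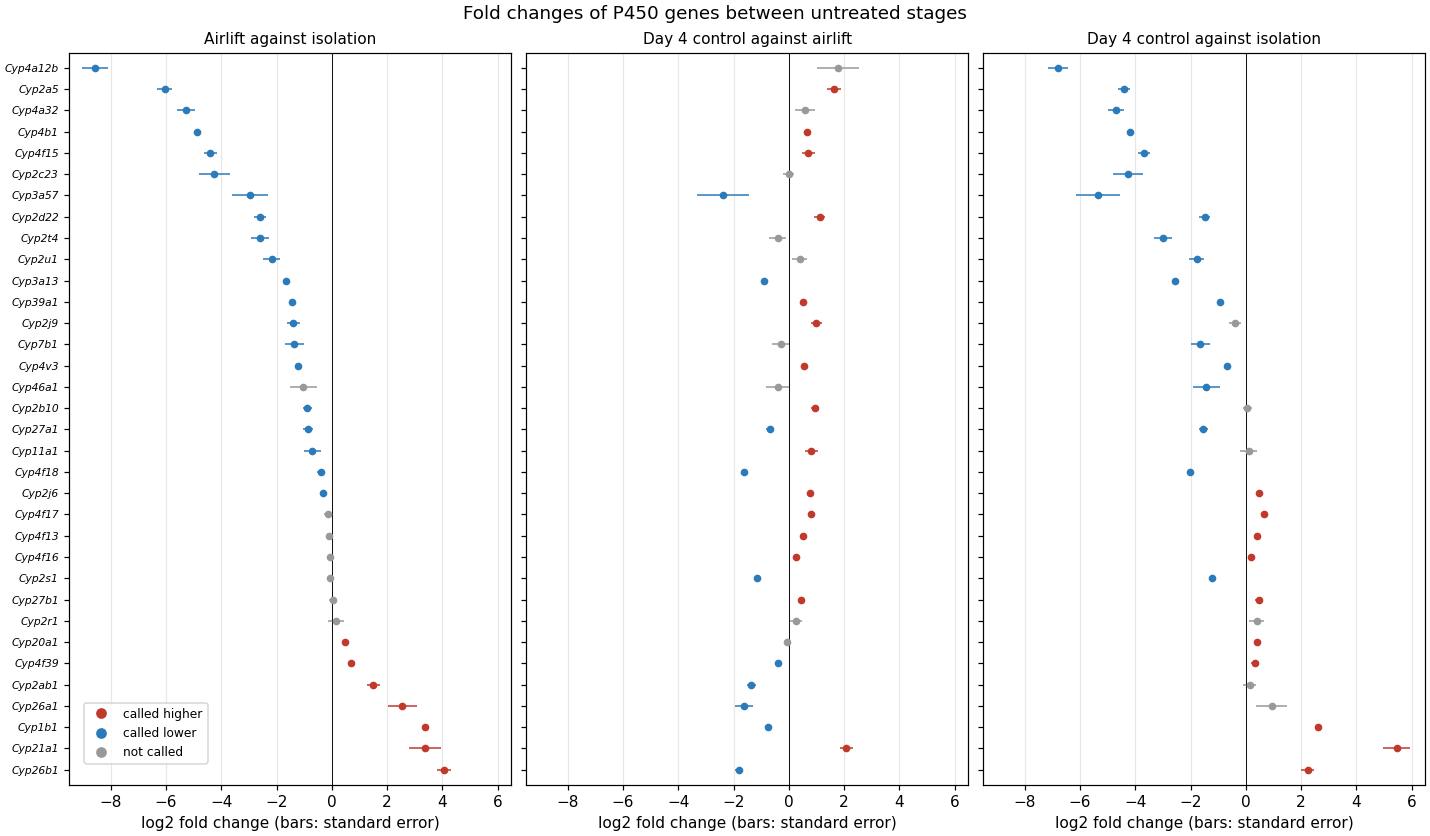
Log2 fold changes (horizontal axes) of 34 tested P450 genes in the 3 comparisons of untreated groups, with bars for 1 standard error and colours for the call at an adjusted p under 0.05. Cyp8b1, with no count after isolation, is left out; Cyp4a12b, Cyp2a5, Cyp4a32 and Cyp4b1 lie far to the left against isolation and Cyp26b1, Cyp21a1 and Cyp1b1 to the right.

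In bulk RNA, fewer cells of a type and less RNA per cell cannot be told apart, and the makeup of these libraries changed with the stages. The labels name the cells as airway epithelial. All 4 general epithelial markers were found in every group, with a summed level of 6158 to 6687 (median 6659) CPM at isolation, 4486 to 5234 (median 4970) at airlift, 4214 to 4625 (median 4434) with NTHi and 3676 to 4443 (median 4306) in day 4 control. The 8 club and secretory markers summed to 162800 to 177300 (median 165500) at isolation, 19150 to 26810 (median 22100) at airlift, 4782 to 5976 (median 4957) with NTHi and 5269 to 7167 (median 6065) in day 4 control. The 8 markers of alveolar type 2 cells, which line the air sacs rather than the airways, stood at 81420 to 107200 (median 95030), 1420 to 1518 (median 1456), 2913 to 3229 (median 3059) and 3872 to 4527 (median 3993) CPM in the same order. Fresh cells held both sets at high levels, and all 8 club and all 8 type 2 markers fell at airlift. Markers of other cells moved as well. The 7 mesenchymal markers summed to 16.5 to 29.6 (median 19.3) CPM at isolation, 25.1 to 69.9 (median 31.2) at airlift, 179.8 to 492 (median 244) with NTHi and 183 to 454 (median 261) in day 4 control, and all 7 were higher in day 4 control than at airlift. All 5 basal markers also rose at that step, and 4 of them were lower with NTHi. The 6 markers of alveolar type 1 cells were all lower with NTHi, at 816 to 988 (median 938) CPM, against 2278 to 2783 (median 2476) CPM in day 4 control. The part of these shifts in the P450 changes was not tested.

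Among the enzymes of foreign compounds, Cyp4b1 led in fresh cells and fell at airlift. It is abundant in lung and activates the toxin 4-ipomeanol. Its level was 414, 445 and 506 CPM in the fresh libraries, 12.4 to 20 (median 14.6) at airlift, 12.1 to 25.3 (median 17.9) with NTHi and 20.1 to 33.4 (median 25.8) in day 4 control. Every cultured library was far below every fresh one, and the 2 day 4 groups overlapped. The fall at airlift was 29.2-fold (log2 -4.87 ± 0.09, adjusted p = 6.76e-18). Day 4 control then stood 1.58-fold above airlift (adjusted p = 5.56e-07), and NTHi lowered it 1.41-fold (log2 -0.50 ± 0.08, adjusted p = 0.000182).

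Cyp2a5, which oxidises coumarin and nicotine, also fell at airlift and was lower with NTHi. The fresh libraries of experiments A, B and C had 40.2, 99.5 and 237 CPM, a wide spread, and all lay above the 0.948 to 2.13 (median 1.71) CPM of airlift. Its fall at airlift was 66.2-fold (log2 -6.05 ± 0.27, adjusted p = 5.83e-13). At day 4 it had 1.5 to 3.73 (median 2.27) CPM with NTHi and 4.27 to 8.3 (median 4.85) CPM in control, without overlap. NTHi lowered it 2.33-fold (log2 -1.22 ± 0.15, adjusted p = 9.24e-06), after a 3.13-fold rise between airlift and day 4 control (adjusted p = 2.63e-05). Its coding sequence is 94.8% identical to that of Cyp2a4, which had 37 counts at isolation and none at airlift, so reads may have been split between them.

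Cyp2b10, a target of the xenobiotic receptor CAR in liver, had the largest NTHi change among the members with at least 5 CPM in day 4 control. It had 39.2 to 67.9 (median 58.8) CPM with NTHi and 121 to 278 (median 249) CPM in day 4 control, with no overlap. The change was 4.13-fold down (log2 -2.05 ± 0.15, adjusted p = 4.52e-08), with differences of -2.06, -2.06 and -1.97 in experiments A, B and C. Control replicate C_1, at 121 CPM, lay below the other 6 control libraries, which had 219 to 278. Across the untreated stages its level was 202, 236 and 228 CPM at isolation and 111 to 126 (median 118) at airlift. It fell 1.85-fold at airlift (adjusted p = 5.94e-05) and rose 1.93-fold between airlift and day 4 control (adjusted p = 6.6e-06). Day 4 control did not pass the test against isolation (log2 0.06 ± 0.16, adjusted p = 0.744), but it was called higher under library totals (0.53, adjusted p = 0.0045), without experiment C (0.18, adjusted p = 0.0294) and without control C_1 alone (0.17, adjusted p = 0.0379). Nr1i3, the gene of CAR, was looked up after the values of Cyp2b10 were seen and had 1 count in the 23 libraries.

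Cyp2s1, a P450 of epithelia that responds to dioxin, fell after airlift. It had 170.3, 203 and 300.1 CPM at isolation and 161 to 263 (median 201) at airlift, which overlapped, and 39 to 67.5 (median 48.8) with NTHi and 81.6 to 119 (median 97.1) in day 4 control, which did not. Airlift against isolation gave a log2 fold change of -0.06 ± 0.08 that did not pass the test under TMM scaling, and 0.43 under library totals, where it was called higher (adjusted p = 0.000302). Day 4 control was 2.23-fold lower than airlift (log2 -1.16 ± 0.07, adjusted p = 1.07e-10). NTHi lowered it by a further 1.88-fold (log2 -0.91 ± 0.05, adjusted p = 2.59e-09).

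**Figure D3:**
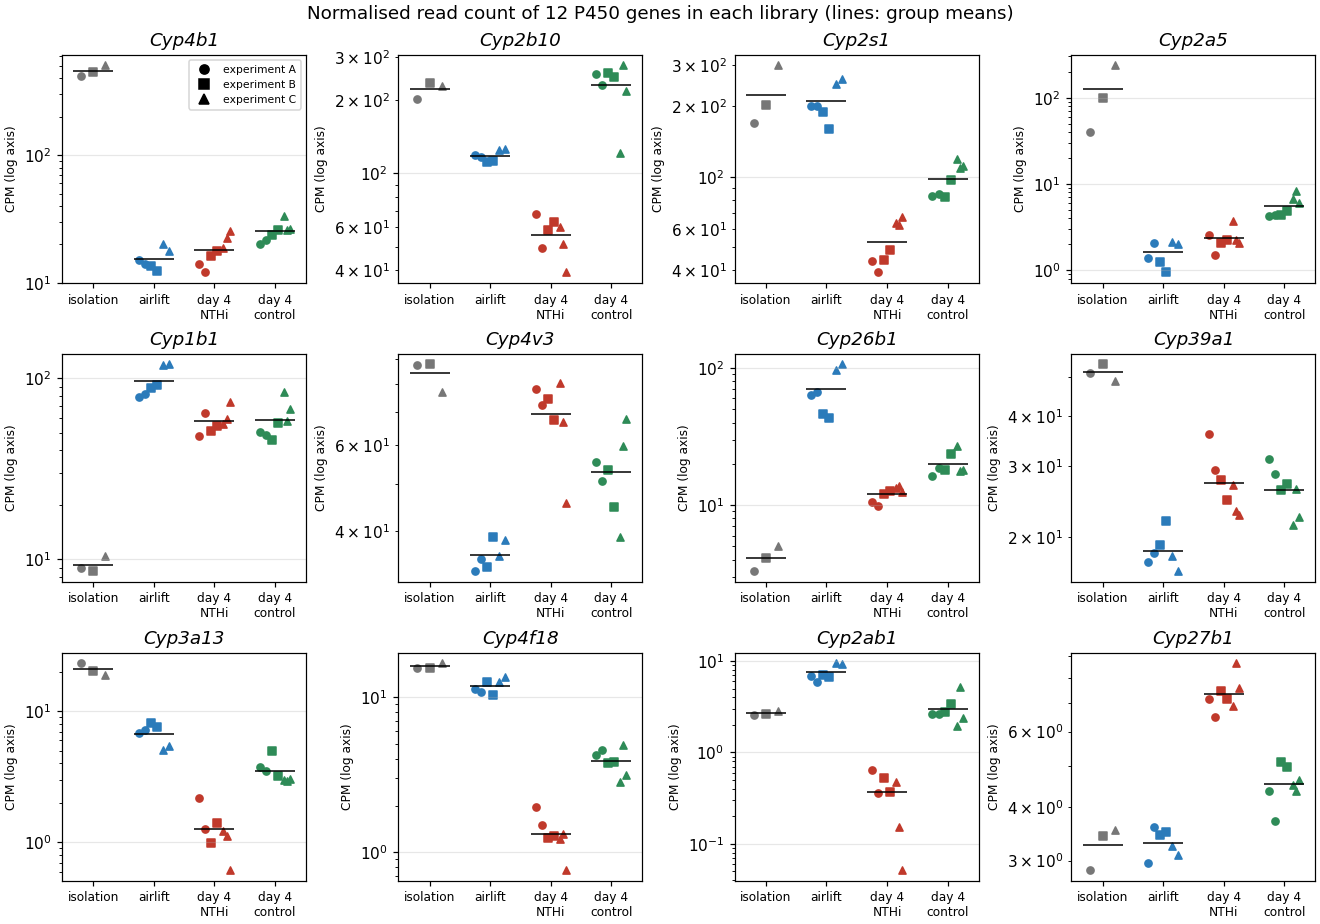
CPM (log axes) of 12 P450 genes in every library, with group means as lines and experiments as symbols; groups run from isolation and airlift to day 4 with NTHi and day 4 control. Cyp2b10, Cyp2s1, Cyp2a5, Cyp26b1, Cyp3a13, Cyp4f18 and Cyp2ab1 are lower in every NTHi library than in any day 4 control library, and Cyp27b1 is higher.

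Cyp2ab1 and Cyp3a13 had lower levels and fell steeply with NTHi. Cyp2ab1 had the largest NTHi change of the 29 members tested: 0.0511 to 0.649 (median 0.370) CPM with NTHi, against 1.96 to 5.18 (median 2.63) CPM in day 4 control, without overlap, or 8.2-fold lower (log2 -3.03 ± 0.34, adjusted p = 4.54e-06). It had 2.55, 2.65 and 2.81 CPM at isolation and 5.86 to 9.49 (median 6.97) at airlift, a rise of 2.83-fold (adjusted p = 1.31e-05), so that NTHi libraries were also below fresh cells. Cyp3a13, a member of the drug-oxidising CYP3A group, went down at every step. Its level was 23.2, 20.4 and 19 CPM at isolation, 5.02 to 8.09 (median 6.97) at airlift, 0.613 to 2.19 (median 1.22) with NTHi and 2.92 to 4.93 (median 3.23) in day 4 control. No pair of neighbouring groups overlapped, and the log2 fold changes were -1.64 ± 0.11 at airlift (adjusted p = 2e-10), -0.91 ± 0.10 from airlift to day 4 control (adjusted p = 3.02e-07) and -1.48 ± 0.18 with NTHi (adjusted p = 1.09e-05).

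Smaller members of the CYP2 and CYP3 families mostly fell at airlift. Cyp2j6, of the CYP2J enzymes that form epoxides of fatty acids, had 16.3, 16.4 and 17 CPM at isolation, 11.3 to 15.1 (median 13) at airlift, 22.5 to 26.9 (median 23.5) with NTHi and 19.4 to 24.7 (median 23.2) in day 4 control. Day 4 control lay above both earlier stages without overlap, 1.71-fold higher than airlift (adjusted p = 7.09e-08), and the NTHi change of 0.08 ± 0.06 did not pass. Its fall at airlift (log2 -0.32 ± 0.09) turned to 0.17 under library totals, without a call (adjusted p = 0.127). That fall also did not pass without experiment A (-0.24, adjusted p = 0.0976). Cyp2d22 had 7.85, 6.28 and 5.58 CPM at isolation and 0.751 to 1.61 (median 0.904) at airlift, a 6.04-fold fall (adjusted p = 2.77e-09); its 1.78 to 2.78 (median 2.14) CPM with NTHi and 1.78 to 2.72 (median 2.48) CPM in control at day 4 gave no call (adjusted p = 0.782). Cyp2u1, Cyp2t4, Cyp2j9 and Cyp2c23 also fell at airlift, by 4.52-fold, 6.03-fold, 2.62-fold and 19.1-fold on fitted values. Of these, the 3 that could be tested with NTHi were not called under TMM with all libraries. Cyp2u1 was called lower with NTHi under library totals (log2 -0.61, adjusted p = 0.0461), without experiment C (-0.89, adjusted p = 0.0445) and without control C_1 (-0.67, adjusted p = 0.0226). Cyp3a57 had 35 counts over the fresh libraries, 12 at airlift, none with NTHi and 2 in day 4 control, and its call between day 4 control and airlift (adjusted p = 0.0396) did not pass without experiment A (adjusted p = 0.28) or B (adjusted p = 0.101), or without any one of fresh A_1, airlift A_1, B_1 or C_1, or control A_1, A_2, B_1, B_2, C_1 or C_3 (adjusted p between 0.0508 and 0.113). Cyp20a1, a P450 whose substrate is not known, differed little between groups: 16.4, 16.2 and 15.5 CPM at isolation, 21 to 23.5 (median 21.9) at airlift, 17.7 to 23.2 (median 20.9) with NTHi and 19.7 to 23.2 (median 20.6) in control. Only its 1.38-fold rise at airlift and its 1.32-fold excess in day 4 control over isolation passed (adjusted p = 1.11e-05 and 4.37e-05).

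Of the Cyp1 genes shown above, only Cyp1b1 could be tested. Cyp1b1, which oxidises aromatic hydrocarbons and oestrogens, had 8.98, 8.57 and 10.5 CPM at isolation and 78.4 to 119 (median 90.2) at airlift, a 10.3-fold rise (log2 3.37 ± 0.12, adjusted p = 1.68e-14). All 20 cultured libraries were above the 3 fresh ones. At day 4 it had 48 to 73.6 (median 55.8) CPM with NTHi and 45.7 to 83.8 (median 56.8) in control, which overlapped. Control was 1.71-fold below airlift (adjusted p = 6.48e-08), and the NTHi difference was -0.00 ± 0.10 (adjusted p = 0.99). Cyp1a1, the usual marker of aryl hydrocarbon receptor activity, had 13 counts over the fresh libraries, 8 at airlift, 2 with NTHi and 2 in day 4 control, too few to test. Cyp1a2 had 6, 2, 0 and 0 counts in the same groups.

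The receptor and its other targets gave no single direction. Ahr, the receptor itself, averaged 87.2 ± 8.06 CPM at airlift (SD, n = 6) and 189 ± 15.6 CPM at isolation (SD, n = 3), a fall of 2.14-fold (adjusted p = 4.24e-11), and was not called with NTHi (log2 0.05 ± 0.04). Tiparp, a target that restrains the receptor, fell 6.96-fold at airlift (adjusted p = 9.53e-14). The repressor Ahrr averaged 0.289 ± 0.12 CPM at airlift (SD, n = 6), its highest group mean, and was not called where it could be tested. Of 7 listed targets other than P450 genes, 2 were higher at airlift (Nqo1, log2 2.02 ± 0.15, and Gsta1, log2 4.51 ± 0.29) and 4 were lower, Tiparp and Aldh3a1 (log2 -1.28 ± 0.18) among them. Of all genes tested, 37.9% were higher and 36.7% lower at that step. With NTHi, Aldh3a1 was higher (log2 1.41 ± 0.14) and Nqo1 was lower (log2 -1.18 ± 0.12). Of the 6 targets tested, 1 rose and 2 fell, beside 20.1% and 20.4% of all genes. Under library totals 1 rose and 3 fell, beside 2282 and 4416 of the 16337 genes tested.

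Enzymes that clear retinoic acid peaked at airlift. Cyp26b1 had 3.28, 4.09 and 5.06 CPM at isolation, 43 to 107 (median 65) at airlift, 9.92 to 13.8 (median 12.5) with NTHi and 16.4 to 26.8 (median 18.1) in day 4 control. The 4 groups did not overlap in any of the comparisons made. It rose 16.7-fold at airlift (log2 4.06 ± 0.24, adjusted p = 3.82e-11), fell 3.53-fold from there to day 4 control (adjusted p = 7.92e-09) and was 1.65-fold lower with NTHi than in control (log2 -0.72 ± 0.09, adjusted p = 1.75e-05). Cyp26a1, whose promoter held the pair of half-sites, followed at a level near the limit of reading. It had 0.0730, 0.212 and 0.0693 CPM at isolation, 0.501 to 1.09 (median 0.639) at airlift, 0 to 0.127 (median 0.0532) with NTHi and 0.146 to 0.495 (median 0.204) in control. Its rise at airlift was 5.86-fold on the fitted scale (adjusted p = 0.000245) and its fall to day 4 control was 3.06-fold (adjusted p = 0.000371); it did not pass the filter for the NTHi test, with 19 counts over the NTHi libraries and 66 over control. Cyp26c1 had at most 6 counts in any group.

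Other retinoid genes moved at the same steps. Of 13 listed genes of retinoid handling, 12 could be tested at airlift, where 5 rose and 6 fell with a median of -0.30 (of all genes tested, 37.9% rose and 36.7% fell). Under library totals 6 rose and 4 fell with a median of 0.18. On that scale 10131 of 18302 genes rose and 4223 fell, and the median of all genes was 0.49. Rdh10, which makes retinal, rose (log2 2.04 ± 0.07), as did Aldh1a2 (1.19 ± 0.15), Aldh1a3 (2.54 ± 0.39) and the retinol transporter Stra6 (2.75 ± 0.32). Aldh1a1, another retinal dehydrogenase, fell (log2 -2.60 ± 0.09), as did Lrat, which stores retinol as esters (-3.39 ± 0.39). With NTHi, 5 of 11 rose and 2 fell (20.1% and 20.4% of all genes), with a median of 0.04 (-0.02 under library totals). Stra6 averaged 19.8 ± 5.12 CPM with NTHi and 4.28 ± 1.03 CPM in day 4 control (SD, n = 7 each), log2 2.19 ± 0.12 (adjusted p = 1.96e-09). The receptor gene Rarb, itself a retinoic acid target, was higher at airlift (log2 0.50 ± 0.10) and lower with NTHi (log2 -0.22 ± 0.07).

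Cyp4v3, a fatty acid hydroxylase of family 4, was called higher with NTHi. It had 45.7 to 80.4 (median 72.4) CPM with NTHi and 38.8 to 67.9 (median 53.2) CPM in day 4 control, which overlapped, since NTHi replicate C_3 was at 45.7 CPM and the other 6 were at 66.9 to 80.4. The difference was 1.31-fold (log2 0.39 ± 0.13, adjusted p = 0.0264). It did not pass without experiment A (0.34, adjusted p = 0.164), without experiment B (0.33, adjusted p = 0.177), or without any one of control A_1, A_2 or B_2 or NTHi A_1, B_1 or C_1 (0.33 to 0.38, adjusted p between 0.0518 and 0.0688). In earlier stages Cyp4v3 had 87.4, 87.9 and 77.2 CPM at isolation and 33 to 38.8 (median 35.3) at airlift. It fell 2.33-fold at airlift (adjusted p = 3.6e-08) and rose 1.46-fold between airlift and day 4 control (adjusted p = 0.000135).

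The Cyp4f genes, which hydroxylate long-chain fatty acids and eicosanoids such as leukotriene B4, split into 2 patterns. Cyp4f15 and Cyp4f18 fell. Cyp4f15 had 11.6, 13.8 and 21.7 CPM at isolation, 0.297 to 1.05 (median 0.763) at airlift, 0.102 to 0.479 (median 0.271) with NTHi and 0.747 to 2.05 (median 0.891) in day 4 control, and was 21-fold lower at airlift (adjusted p = 1.79e-11) and 4.32-fold lower with NTHi (log2 -2.11 ± 0.29, adjusted p = 3.63e-05). Its small rise between airlift and day 4 control (1.63-fold, adjusted p = 0.0196) did not pass without experiment B (adjusted p = 0.0954) or C (adjusted p = 0.0539), or without any one of airlift B_1, airlift C_1 or control B_2 (0.55 to 0.65, adjusted p between 0.0502 and 0.0539). Cyp4f18, known in mice as the leukotriene B4 hydroxylase of neutrophils and other myeloid cells, had 15.3, 15.3 and 16.5 CPM at isolation, 10.3 to 13.4 (median 11.8) at airlift, 0.766 to 1.95 (median 1.27) with NTHi and 2.83 to 4.88 (median 3.81) in day 4 control. It was 3.06-fold lower in day 4 control than at airlift (adjusted p = 1.09e-09) and 2.97-fold lower with NTHi than in control (adjusted p = 8.22e-07), with no overlap at either step. The smaller fall at airlift (log2 -0.40 ± 0.13, adjusted p = 0.0118) did not pass without experiment A (adjusted p = 0.0768), without experiment B (adjusted p = 0.0665) or without the fresh library of experiment C (adjusted p = 0.0558), and under library totals it was 0.08.

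Cyp4f13, Cyp4f16, Cyp4f17 and Cyp4f39 had smaller differences. Cyp4f39, the mouse relative of a human enzyme of skin lipid synthesis, had 17.4, 27 and 25.7 CPM at isolation, 35.5 to 39.9 (median 38) at airlift, 20.7 to 25.9 (median 22.5) with NTHi and 23.5 to 34.6 (median 30) in day 4 control. It was 1.28-fold lower with NTHi (adjusted p = 0.000383), with overlap. Cyp4f13 had 17.3, 18.7 and 20.7 CPM at isolation, 15.1 to 19.6 (median 17.4) at airlift, 20 to 23.7 (median 22.1) with NTHi and 23.8 to 26.2 (median 25.2) in control. Its NTHi libraries lay just below the control libraries, 1.15-fold lower (adjusted p = 0.00194). Cyp4f17 had 7.48, 7.41 and 10 CPM at isolation, 6.86 to 7.99 (median 7.34) at airlift, 12.7 to 16.7 (median 15) with NTHi and 10.5 to 15.6 (median 13.4) in control, and Cyp4f16 had 27.6, 23.6 and 26.4, then 22.6 to 26.2 (median 24.2), 26.7 to 30.6 (median 29) and 26.5 to 31.2 (median 30) in those groups. Neither was called with NTHi, and both were higher in day 4 control than at airlift, by 1.76-fold and 1.19-fold (adjusted p = 8.7e-07 and 0.000802). At airlift the 3 genes Cyp4f13, Cyp4f16 and Cyp4f17 were slightly below isolation without a call under TMM (log2 -0.10, -0.07 and -0.15) and called higher under library totals (0.38, 0.42 and 0.34).

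Of the Cyp4a genes, fatty acid hydroxylases best known from kidney and liver, Cyp4a12b and Cyp4a32 could be tested, and both fell at airlift. Cyp4a12b had 4.85, 7.94 and 11.5 CPM at isolation; the 6 airlift libraries together held 4 counts, the 7 with NTHi 14 and the 7 of day 4 control 20. Its fitted fall at airlift was the largest of any member with counts in both groups (log2 -8.58 ± 0.46, adjusted p = 7.61e-12). Cyp4a32 had 3.69, 5.05 and 6.66 CPM at isolation and 0.0741 to 0.263 (median 0.108) at airlift, a 38.9-fold fall (adjusted p = 4.65e-11). Both have a near-identical copy, at 98.6% of the coding bases for Cyp4a12b (Cyp4a12a) and 97.2% for Cyp4a32 (Cyp4a10), so which gene of each pair the reads came from is uncertain.

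Of the vitamin D enzymes, Cyp27b1 rose with NTHi. It makes the active hormone and had 6.48 to 8.67 (median 7.17) CPM with NTHi and 3.71 to 5.11 (median 4.51) CPM in day 4 control, without overlap, 1.62-fold higher (log2 0.70 ± 0.08, adjusted p = 2.93e-06). It had 2.85, 3.42 and 3.54 CPM at isolation and 2.95 to 3.6 (median 3.34) at airlift, which overlapped (adjusted p = 0.803), although under library totals airlift was called higher (log2 0.52, adjusted p = 0.00119). Cyp2r1, which makes the precursor, averaged 1.13 ± 0.35 CPM with NTHi and 1.42 ± 0.38 CPM in day 4 control (SD, n = 7 each) and was called in no comparison under TMM. Its excess in day 4 control over isolation passed under library totals (log2 0.86, adjusted p = 0.00985) and without fresh library B_1 (0.79, adjusted p = 0.0355). Cyp24a1, which breaks the hormone down and is the classic target of its receptor, had 4 counts over the fresh libraries, 11 at airlift, 3 with NTHi and 6 in day 4 control, too few to test. The receptor gene Vdr averaged 13.9 ± 1.28 CPM with NTHi and 21.6 ± 2.12 CPM in day 4 control (SD, n = 7 each), 1.55-fold lower (adjusted p = 8.33e-06).

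**Figure D4:**
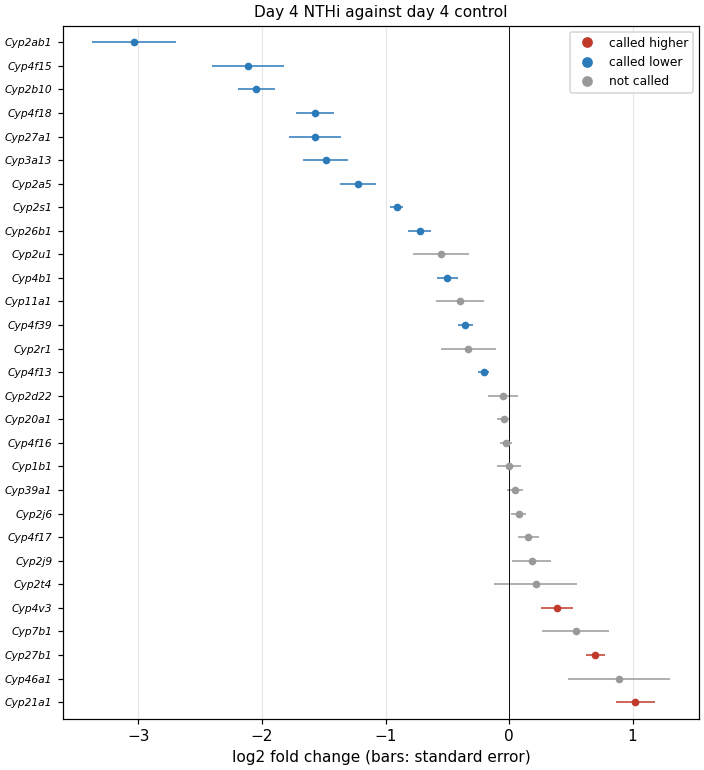
Log2 fold changes (horizontal axis) of the 29 tested P450 genes with NTHi relative to day 4 control, with bars for 1 standard error and colours for the call at an adjusted p under 0.05. The 12 genes called lower run from Cyp2ab1 at -3.03 to Cyp4f13 at -0.20, and the 3 called higher are Cyp4v3, Cyp27b1 and Cyp21a1.

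Cyp27a1, a mitochondrial sterol hydroxylase that macrophages also express, was called lower at each step. It had 6.2, 4.34 and 6.55 CPM at isolation, 2.79 to 3.36 (median 3.09) at airlift, 0.370 to 0.940 (median 0.758) with NTHi and 1.49 to 2.81 (median 1.85) in day 4 control. Day 4 control and airlift overlapped, and under library totals the change at airlift did not pass (log2 -0.39, adjusted p = 0.0517). NTHi libraries lay below all control libraries, 2.97-fold lower (log2 -1.57 ± 0.21, adjusted p = 2.7e-05). The 9 macrophage markers also stood lower with NTHi, with a summed level of 307 to 1362 (median 1022) CPM, against 1891 to 3918 (median 3463) CPM in day 4 control, and 7 of the 9 were called lower and 1, Adgre1, higher (log2 1.19 ± 0.23, adjusted p = 0.000639). The 5 neutrophil markers summed to 6.59 to 24.6 (median 20) CPM with NTHi and 4.13 to 7.75 (median 6.88) CPM in control, with 2 of 4 tested called higher and 1 lower. The part of these cells in the values of Cyp27a1 and Cyp4f18 was not tested.

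Enzymes of oxysterols and bile acids were highest in fresh cells. Cyp39a1, a 7-alpha-hydroxylase of oxysterols, had 51.2, 53.7 and 48.9 CPM at isolation, 16.5 to 21.9 (median 18.1) at airlift, 22.7 to 36.1 (median 26.9) with NTHi and 21.4 to 31.3 (median 26.3) in day 4 control. It fell 2.74-fold at airlift (adjusted p = 1.83e-11), rose 1.42-fold between airlift and day 4 control (adjusted p = 6.57e-06) and was not called with NTHi (log2 0.05 ± 0.06). Cyp7b1, which acts on the same class of substrates, fell 2.56-fold at airlift (adjusted p = 0.00193). Cyp8b1, the sterol 12-alpha-hydroxylase of bile acid synthesis, had 0.803, 0.706 and 0.832 CPM in the fresh libraries, 66 counts in all, and no count in any cultured library. Set against a floor of 3 counts over the group, it was at least 60.7-fold lower at airlift and at least 74-fold lower in day 4 control than at isolation. These bounds hold only if each count is a separate read. Cyp46a1, the cholesterol 24-hydroxylase known from brain, was lower in day 4 control than at isolation (log2 -1.43 ± 0.49, adjusted p = 0.0131), a call that did not pass without experiment A (adjusted p = 0.13), without its fresh library alone (-1.18, adjusted p = 0.0767), or under library totals (-0.96, adjusted p = 0.0825).

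Steroid synthesis genes had low counts. Cyp21a1, the steroid 21-hydroxylase of the adrenal gland, was called higher in all 4 comparisons. It had 0.0730, 0 and 0.0693 CPM at isolation, 0.322 to 0.692 (median 0.501) at airlift, 3.54 to 5.9 (median 4.6) with NTHi and 1.54 to 3.66 (median 2.2) in day 4 control. The NTHi and control libraries overlapped only at control C_1, which had 3.66 CPM. NTHi was 2.03-fold higher (log2 1.02 ± 0.16, adjusted p = 0.000112), and control was 4.24-fold above airlift (adjusted p = 6.52e-07). Against isolation the fold rests on 4 counts in the 3 fresh libraries and is given only as its fitted log2 value, 3.37 ± 0.58 for airlift. In RefSeq (GRCm38.p6) the span of the gene overlaps that of Tnxa, and the use of strand in counting is not given, so their reads may have been mixed. The same limit holds for Cyp4v3 (overlapped by Gm30504), Cyp4f18 (Gm51535), Cyp4a12b (Gm12837), Cyp7b1 (Gm23686), Cyp11a1 (Gm17322) and Cyp39a1 (Gm25783 and Gm41581). Only whole gene spans were compared, and whether exons overlap was not tested. Of the neighbours of Cyp21a1, C4b and C4a were looked up after its values were seen. C4b averaged 1.35 ± 0.59 CPM with NTHi and 2.63 ± 0.89 CPM in day 4 control (SD, n = 7 each, lower, adjusted p = 0.00041), and C4a was not called (log2 0.21 ± 0.22). Values of Tnxa, the gene whose span overlaps, are not reported here, and mixing of reads was not tested. Cyp11a1, which starts steroid synthesis, had a call at airlift (log2 -0.72 ± 0.31, adjusted p = 0.0446) that was -0.12 without the fresh library of experiment B (adjusted p = 0.742). It also did not pass without any one of airlift A_2, B_1 or B_2 or control A_2, B_1 or B_2 (adjusted p between 0.0504 and 0.108).

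Partners of the P450 enzymes were in part lower with NTHi. Por, the reductase that supplies their electrons, averaged 1131 ± 102 CPM at isolation (SD, n = 3), 874 ± 87.8 at airlift (SD, n = 6), and 372 ± 8.09 with NTHi and 471 ± 31.8 in day 4 control (SD, n = 7 each). It was 1.27-fold lower with NTHi (adjusted p = 2.59e-05) and 1.88-fold lower in day 4 control than at airlift (adjusted p = 3.59e-10). Of 10 listed electron donors, 5 were lower and none higher with NTHi (median -0.14), where 20.4% of all genes tested were lower and 20.1% higher. At airlift 7 were lower and 1 higher (median -0.39), where 36.7% of all genes were lower and 37.9% higher (median 0.00). Under library totals 3 were lower and 4 higher at airlift (median 0.10). On that scale 4223 of 18302 genes were lower and 10131 higher, and the median of all genes was 0.49. The mitochondrial donor Fdx1 was lower at airlift (log2 -1.15 ± 0.08 under TMM). Of the haem synthesis genes, 5 of 8 were higher and 2 lower at airlift (median 0.51), although Alas1, its rate-limiting enzyme, was among the lower (log2 -1.66 ± 0.07), and 1 of 8 was lower with NTHi (median -0.07). Under library totals, 7 were higher and 1 lower at airlift (median 0.99), and 3 were lower with NTHi (median -0.13). On that scale 2282 of 16337 genes were higher and 4416 lower with NTHi.

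Of the 4 epoxide hydrolases, which act on products of P450 enzymes, 1 of 3 tested was lower with NTHi (median -0.37), and at airlift Ephx2 was higher (log2 1.80 ± 0.27) and Ephx3 lower (log2 -3.01 ± 0.60). Tbxas1 and Ptgis, P450 enzymes of eicosanoid synthesis that carry other symbols, were not called with NTHi. Of the 14 receptors of P450 genes that were tested, 2 were higher and 4 lower with NTHi (1 and 6 under library totals). At airlift 3 were higher and 8 lower (5 and 6 under library totals). Of all genes tested, 20.1% were higher and 20.4% lower with NTHi under TMM, and 37.9% were higher and 36.7% lower at airlift. Under library totals, 2282 of 16337 genes were higher and 4416 lower with NTHi. At airlift 10131 of 18302 were higher and 4223 lower on that scale. Hnf4a was higher with NTHi (log2 1.02 ± 0.15), and at airlift Ppara (log2 -2.03 ± 0.16), Nr1h3 (-1.66 ± 0.11) and Rara (-1.01 ± 0.10) were lower.

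The lowest members stayed untested. Of the 79 with a count, 44 passed the filter in no comparison. Many were read mainly in fresh cells: Cyp2d40 had 25 counts there and none in culture, which put it at least 23.1-fold lower at airlift, and Cyp4f37 had 50 counts at isolation and 7 at airlift. Cyp2e1, an abundant enzyme of liver, had 14 counts over the fresh libraries, 12 at airlift, 26 with NTHi and 18 in day 4 control. At 32323375 to 39081663 counts per library, a gene at such levels is at the limit of what was read.

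The NTHi effect did not differ detectably between experiments. A test of the interaction of treatment and experiment (edgeR, 16337 genes) called no gene after Benjamini-Hochberg adjustment, with 675 genes (4.13%) at an unadjusted p under 0.05. Of the P450 genes, Cyp46a1 alone was under that level, and its adjusted p was 1. Control C_1 and NTHi C_3 stood apart from the other day 4 libraries on a principal component. Without both, 3 members were higher and 13 lower with NTHi, with Cyp2u1 as the one added (log2 -0.68, adjusted p = 0.0336). Between stages, the called members had the same sign in the 3 experiments for 27 of 28 at airlift against isolation (not Cyp11a1), 25 of 25 for day 4 control against airlift and 28 of 29 for day 4 control against isolation (not Cyp4f39). The calls were made on the same experiments, so such counts are no separate check.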

How the data were processed

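The authors deposited raw counts per gene, 1 table per experiment, and per the submitters' processing notes STAR and DESeq2 were used on build GRCm39. How reads were counted per gene, and whether by strand, is not given in the sources used here. Each table held 41098 lines, of which 25 fragments of broken lines were left out, and 41073 genes remained. Libraries held 32323375 to 39081663 counts. In each library, 69.3% to 74.9% of the nonzero counts below 20 were even, and the reason was not tested. If reads were counted in pairs, small counts hold fewer separate reads than they show. Floors cover counting error only and take each count as a separate read.

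Groups came from the labels. Tests were run in edgeR 4.0.16 (R 4.3.3; filterByExpr with a minimum count of 10, TMM scaling, quasi-likelihood F-test, terms for group and experiment) on the 14 day 4 libraries or the 16 untreated libraries, with a Benjamini-Hochberg adjusted p under 0.05 over all genes tested. Standard errors of log2 fold changes are their size over the square root of F. CPM used TMM-scaled totals of the 23 libraries; TMM factors were 0.741 to 0.77 at isolation. Replicates within an experiment differed by more than sampling noise. The test was tried on simulated counts.

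Promoters and overlaps came from RefSeq (GRCm38.p6), and exon lengths and coding sequences from GENCODE M21. Where a member has no tested value, only its counts are given. Values by library are given for members with a group mean of at least 5 CPM and for the 5 largest called changes of each comparison; genes of other lists are named when called with a log2 change of at least 1, beside Por, Ahr, Ahrr, Tiparp, Vdr and Rarb, and exceptions are stated. Some genes with smaller changes were named to complete a list. The results of 1 other enzyme list are not reported here. The members and lists were chosen with earlier results of these data known. The alternatives were DESeq2 size factors, library totals, DESeq2 1.42.0, limma-voom (limma 3.58.1) with sample weights, counts summed per experiment and group, no filter, counts divided by 2, no experiment term, each experiment or library left out, a replicate block and, added after the data were seen, the fit without 2 libraries that stood apart.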

Additional observations from a re-analysis of the deposited data

Results flagged for a closer look

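In 105 pairs of member and group with 4 to 10 libraries, 11 single libraries lay far from the rest of their group by Dixon's criterion, which chance meets in about 1 group in 20. Among well-read genes, Cyp2b10 had 121 CPM in day 4 control C_1 and 219 to 278 in the other 6 control libraries. Cyp4v3 had 45.7 CPM in NTHi C_3 and 66.9 to 80.4 in the other 6. Cyp3a13 had 4.93 CPM in control B_1, above 2.92 to 3.73 in the rest, and Cyp21a1 had 3.66 CPM in control C_1, above 1.54 to 2.42.

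The other 7 were genes at or under about 2 CPM. Cyp2j9 had 0.818 CPM in control A_1, below 1.29 to 1.61. Cyp7b1 had 0.759 CPM in airlift C_2, above 0.25 to 0.396, and Cyp2u1 had 0.216 CPM in NTHi A_1, below 0.381 to 0.486. Cyp26a1 had 0.495 CPM in control A_2, above 0.146 to 0.223, Cyp4a12b had 0.203 CPM in NTHi A_2, above 0 to 0.0541, and Cyp4a32 had 0.263 CPM in airlift B_2, above 0.0741 to 0.125. Cyp3a57 had 0.0496 CPM in control C_2, the only control library with a count. Control C_1 and NTHi C_3 are the libraries that stood apart on a principal component; what else differs in them was not tested.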

How the results depend on the processing

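By library totals, airlift against isolation gave 12 members higher in place of 7, and among all genes 10131 were higher and 4223 lower, against 6928 and 6718 under TMM; day 4 control against isolation gave 10149 and 4497, against 7108 and 6904, and NTHi gave 2282 and 4416, against 3281 and 3338. 6 members changed sign at airlift under library totals: Cyp2j6 (0.17), Cyp2s1 (0.43), Cyp4f18 (0.0848), Cyp4f17 (0.34), Cyp4f16 (0.42) and Cyp4f13 (0.38). Under the alternatives other than library totals, no called member changed sign in any comparison. Of the log2 fold changes of single members, 762 of 779 kept their direction and side of the threshold for NTHi, 952 of 977 for airlift against isolation, 975 of 1006 for day 4 control against airlift and 954 of 977 for day 4 control against isolation. Leaving out single libraries gave 2 to 4 members higher and 12 to 13 lower for NTHi, 7 higher and 20 to 22 lower at airlift, 14 to 17 higher and 9 to 11 lower for day 4 control against airlift, and 9 to 12 higher and 19 to 21 lower against isolation. Replicate numbers did not pair the libraries by the correlation of their deviations (from -0.494 to 0.133 between NTHi and control), and a replicate block gave 2 members higher and 12 lower for NTHi, with Cyp4v3 no longer called (0.39, adjusted p = 0.0654). Depth limits the 50 members with no group mean of 1 CPM or more.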
